A study of Mus musculus with 9 samples.

Results

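The 34 genes described here encode the enzymes and carriers that take glucose to pyruvate and lactate, pass pyruvate to acetyl-CoA, or divert glucose 6-phosphate into the pentose phosphate pathway, together with galactokinase. They were chosen by gene symbol from the 41388 genes of the deposited murine RNA-seq table, each symbol had 1 row, and all 34 members passed the minimum mean of 10 normalized counts, as did 11599 genes in all. The samples were Tc17 cells (CD8+ T cells that make IL-17) differentiated for 2 days from naive CD8+ T cells of lymph node and spleen of C57BL/6 mice with antibodies to CD3, CD28 and IFN-γ, IL-2, TGF-β and IL-6. The 3 groups of 3 libraries all contained 0.2% DMSO as solvent and received nothing further (Ctrl), 20 µM dimethyl fumarate (DMF, an electrophilic ester that reacts with thiols), or 20 µM DMF with 50 µM glutathione (DMF + GSH). The cells were a bulk culture in every group, so fewer cells of a type and less RNA per cell cannot be told apart. The comparisons ask which enzyme steps changed in transcript level with DMF and whether added glutathione, the main thiol of the cell, changed that.

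In glycolysis, glucose enters through transporters of the SLC2A family, is trapped by hexokinase, is committed by phosphofructokinase and split by aldolase, and the resulting trioses are carried to pyruvate with a net gain of ATP. Activated T cells are known for sending much of that pyruvate to lactate, which leaves through the monocarboxylate carriers, even when oxygen is present. The oxidative arm of the pentose phosphate pathway makes NADPH, the reductant that regenerates glutathione, and the non-oxidative arm interconverts sugar phosphates and supplies ribose for nucleotides.

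The libraries held 7671772 to 14511926 reads assigned to genes, with the shallowest library in Ctrl (replicate 3). The CD8 T cell markers Cd8a, Cd8b1, Cd3e and Cd3g summed to 19062 to 24738 normalized counts in every library, a sum in which single markers moved in opposite directions. Cd8a had 10599, 10356 and 9483 in Ctrl and 13778, 13103 and 10923 in DMF, higher with DMF at each replicate number. Cd3e, at 4577, 5331 and 4428 in Ctrl and 3781, 4537 and 3892 in DMF, and Cd3g, at 3593, 4186 and 2763 in Ctrl and 2303, 2811 and 2121 in DMF, were lower at each number. Il17a and Il17f, the cytokine genes that define Tc17 cells, together had 2888, 4393 and 4476 in Ctrl, 753, 1936 and 1899.9 in DMF, and 2971, 4230.3 and 4978 in DMF + GSH, so that each DMF library was below every other library. The part of these marker differences in the members' results was not tested. Cd4 reached at most 4.40 normalized counts, the erythroid markers and Pf4 were at 0, and the B cell list was carried by Cd79b, which had 56.1 to 87.3. One library stood apart: the 4 myeloid markers summed to 306 in Ctrl replicate 3 against 57.1 to 86.1 in the others, with Lyz2 at 119, Csf1r at 58.3 and Adgre1 at 45.5, and these 3 reached at most 10.6 elsewhere. The part of these cells in the results below was not tested beyond leaving that library out, which gave 7 members called higher and 5 lower with DMF in place of the 7 and 8 reported below. Replicate 1 of each group was prepared in a batch of its own, so the replicate number, which was kept as a block in the model, holds the batch. The library kit is not stated to keep the strand, and 7 members share more than 10% of their exon bases with another gene, namely Gpi1, Pfkm, Pkm, Pdha1, G6pdx, Pgls and Rpe (10.2% to 20.6%). The study states that its experiments used independent biological replicates, but the labels do not tie the libraries to animals or cultures, so the p-values are read as measuring the spread between these samples.

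With DMF the pathway did not move as a unit. In DMF against Ctrl, 7 members rose and 8 fell at an adjusted p under 0.01 (limma, Benjamini-Hochberg over all genes tested), and 19 passed in neither direction. Over all genes tested, 17.6% were called higher and 15.6% lower, so that 44.1% of the members were called in either direction beside 33.2% of all genes, a difference with no test. The median log2 fold change of the members was -0.03, against 0.01 over all genes. The 7 that rose were Hk2, Slc16a1, G6pdx, Pgd, Tkt, Rpia and Galk1, and the 8 that fell were Slc2a3, Hk1, Gpi1, Pfkl, Pfkm, Aldoc, Slc16a3 and Pdk1. By step, 4 of the 7 pentose phosphate members rose and 0 fell, 4 of the 7 upper glycolysis members fell and 0 rose, and 0 of the 8 lower glycolysis members passed in either direction. An unadjusted p under 0.05 was reached by 3 of these 8 and by 6003 of the 11599 genes tested. Every DMF library lay above every Ctrl library for 10 members, beside 21.6% of all genes tested, and below for 3 members, beside 19.8%. These counts depend on the model: with the batch in place of the replicate block, limma called 2 members higher (Rpia and Galk1) and 0 lower, and DESeq2 with the batch called 6 higher and 1 lower, Slc16a3. Without Ctrl replicate 2 the counts were 5 and 3, and without any other single library 6 to 8 and 4 to 8. All 15 called members kept their sign in each of the 22 alternatives tried.

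**Figure D1:**
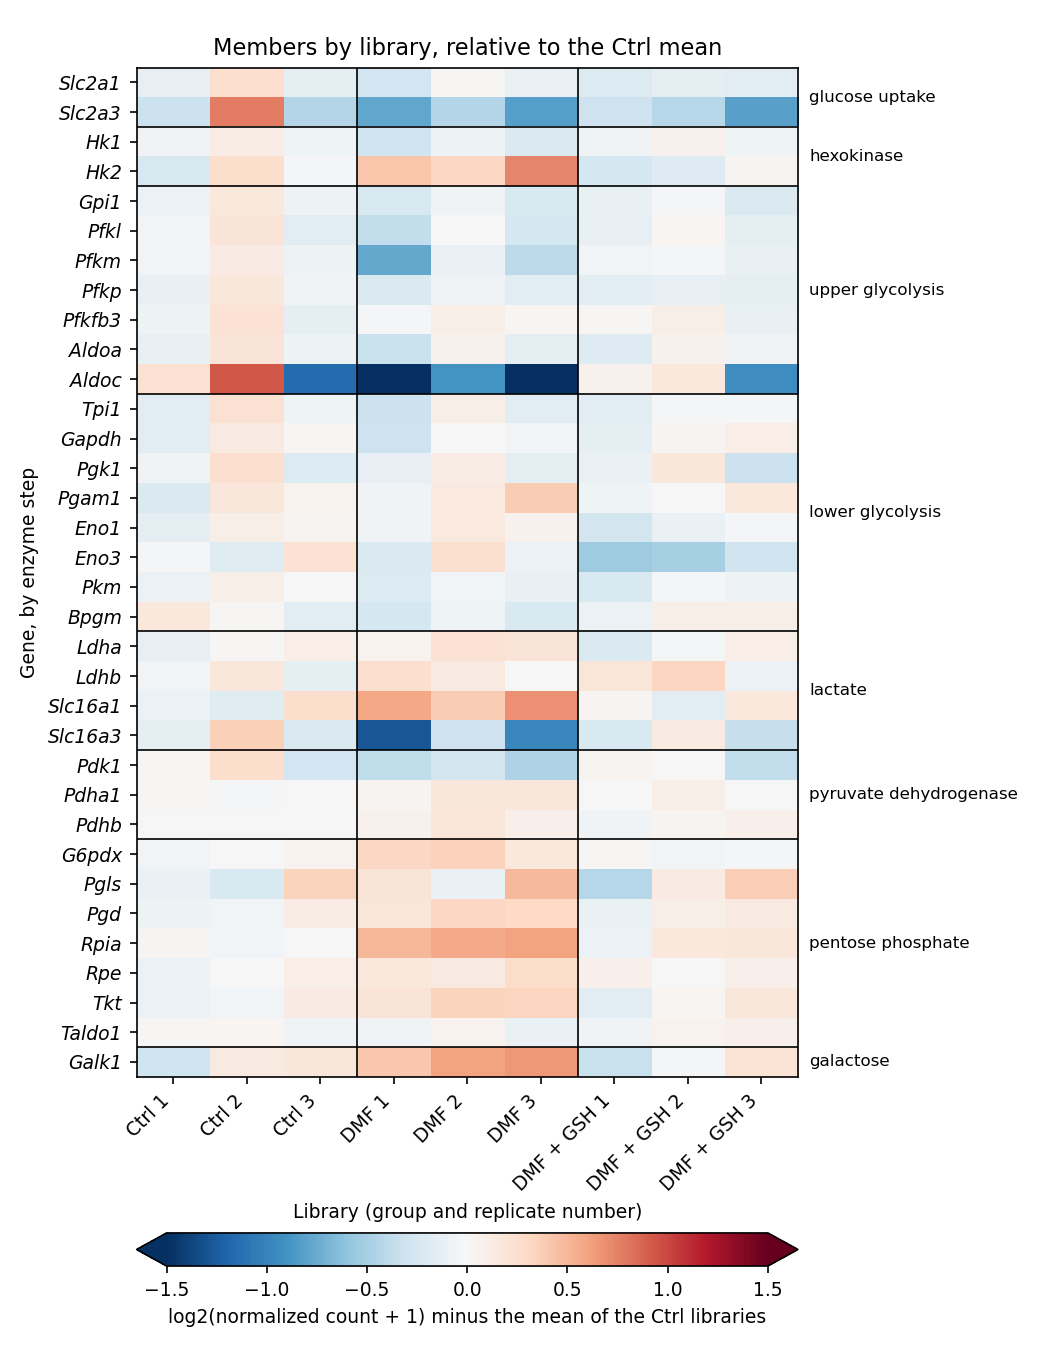
Each row is a member and each column a library, coloured by log2(normalized count + 1) minus the mean of the 3 Ctrl libraries, with rows grouped by enzyme step and values beyond the ends of the colour bar drawn in its end colour. Aldoc and Slc16a3 are blue in the DMF libraries while Slc16a1, Rpia, Tkt and Galk1 are red there, and the lower glycolysis rows are paler, apart from Eno3, which is blue in DMF + GSH.

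The glucose transporters were at or below their control level. Slc2a1, which encodes the basal transporter GLUT1, had 1597, 2079 and 1591 normalized counts in Ctrl and 1424, 1759 and 1629.8 in DMF, and its log2 fold change of -0.12 ± 0.07 (SE, n = 3 libraries per group) did not pass the test (adjusted p = 0.147). Slc2a3, which encodes the high-affinity transporter GLUT3, had 674, 1446 and 621 in Ctrl replicates 1 to 3, 494, 621 and 478 in DMF, and 682, 628 and 479 in DMF + GSH. It fell by 0.68 on the log2 scale with DMF (SE 0.14, adjusted p = 0.00074). Ctrl replicate 2 was far above the other libraries, and DMF replicate 2 was level with Ctrl replicate 3 at 621. Without Ctrl replicate 2 the difference was -0.38 with an adjusted p of 0.0105, and in a robust limma fit of all 9 libraries, which lets genes of outlying variance keep more of their own spread, the difference was again -0.68 with an adjusted p of 0.0967, so that neither fit called Slc2a3. DMF + GSH against DMF gave a log2 fold change of 0.16 ± 0.14 for Slc2a3 (adjusted p = 0.394), made up of 0.46 in replicate 1, where DMF + GSH reached the Ctrl level, and 0.02 and 0.0038 in replicates 2 and 3. Without DMF + GSH replicate 1 the value was -0.05, and without DMF + GSH replicate 2 it was 0.37.

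The 2 hexokinases, which phosphorylate glucose in the first step inside the cell, moved in opposite directions. Hk2, the inducible isoform, had 874, 1245 and 1024 normalized counts in Ctrl and 1384, 1282 and 1725 in DMF, a log2 fold change of 0.49 ± 0.09 (adjusted p = 0.000377). The DMF libraries were all above the Ctrl libraries, but by replicate the difference was 0.66, 0.04 and 0.75, so replicate 2 hardly moved. In DMF + GSH it had 866, 907 and 1071, lower than DMF by a log2 fold change of -0.62 ± 0.09 (adjusted p = 3.91e-05). Against Ctrl the DMF + GSH libraries differed by -0.01, -0.46 and 0.06, so replicate 2 was below its Ctrl level. Hk1, the constitutive isoform, had 3180.2, 3562.5 and 3151 in Ctrl, 2679, 3119 and 2837 in DMF, and 3174, 3446 and 3147 in DMF + GSH. All 3 DMF libraries were below the other 6, and the fall of Hk1 was small, with a log2 fold change of -0.20 ± 0.05 (adjusted p = 0.00384); without Ctrl replicate 1, 2 or 3 or DMF replicate 1 the call was lost.

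The base sequence upstream of Hk2 is shown because 4 short motifs of transcription factors tied to these genes were searched in the RefSeq promoter windows (GRCm38.p6, 250 bases before to 50 after a start, on either strand). The 250 bases before the Hk2 start, at chr6:82774455-82774704 on the minus strand, carry ACGTG, the core of the hypoxia response element, on the opposite strand, so that it reads CACGT here. Capitals mark the 2 matches, whose first bases lie 226 and 52 bases before the start.
Hk2: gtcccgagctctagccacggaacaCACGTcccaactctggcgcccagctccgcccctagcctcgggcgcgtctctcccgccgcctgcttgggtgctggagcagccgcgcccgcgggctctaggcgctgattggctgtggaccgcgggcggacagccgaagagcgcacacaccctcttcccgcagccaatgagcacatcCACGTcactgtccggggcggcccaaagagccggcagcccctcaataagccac

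Of the 7 members of the upper steps, from glucose 6-phosphate to the trioses, 4 fell with DMF and 3 (Pfkp, Pfkfb3 and Aldoa) did not pass the test. Gpi1, the isomerase that makes fructose 6-phosphate, had a log2 fold change of -0.17 ± 0.05 (adjusted p = 0.00942), and its call was lost with any Ctrl or DMF library left out, with DMF + GSH replicate 2 or 3 left out, with no minimum and with only the 6 libraries compared. Of the phosphofructokinases, which catalyse the committed step, the liver-type Pfkl fell by 0.21 (SE 0.06, adjusted p = 0.00615) and the muscle-type Pfkm by 0.42 (SE 0.11, adjusted p = 0.00556). Pfkm had 270.2, 304 and 264 normalized counts in Ctrl and 164, 260.2 and 212 in DMF, with no overlap. The call for Pfkl was lost without Ctrl replicate 1 or 2 or DMF replicate 1 or 3, and that for Pfkm without those or Ctrl replicate 3. By replicate the Pfkm difference was -0.72, -0.22 and -0.32, and without DMF replicate 1 it was -0.25 (adjusted p = 0.0781). Platelet-type Pfkp, at -0.15 ± 0.05, and Pfkfb3, at 0.03 ± 0.07, whose product makes the allosteric activator of phosphofructokinase, did not pass the test (adjusted p = 0.0358 and 0.752).

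Aldoc had the lowest log2 fold change of the members. Aldolases split fructose 1,6-bisphosphate, and Aldoc, the isoform best known from brain, was a minor one here, with 147, 239.7 and 55.5 normalized counts in Ctrl, 40.2, 66.8 and 27.1 in DMF, and 131, 139.6 and 65.1 in DMF + GSH. The Ctrl and DMF libraries overlapped, since Ctrl replicate 3 was below DMF replicate 2, but within each replicate number DMF was lower, by -1.84, -1.83 and -1.01 on the log2 scale. The log2 fold change was -1.56 ± 0.19 (adjusted p = 2.37e-06) with DMF, and 1.32 ± 0.19 (adjusted p = 1.9e-05) for DMF + GSH against DMF. With the batch in place of the block the adjusted p-values were 0.0473 and 0.0892, and DESeq2 with the batch made neither call. Aldoa, the main aldolase, was at -0.13 ± 0.05 (adjusted p = 0.0448). Aldoc and Slc16a3 were the 2 members called with a log2 fold change of -0.75 or lower, beside 4.28% of all genes tested.

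**Figure D2:**
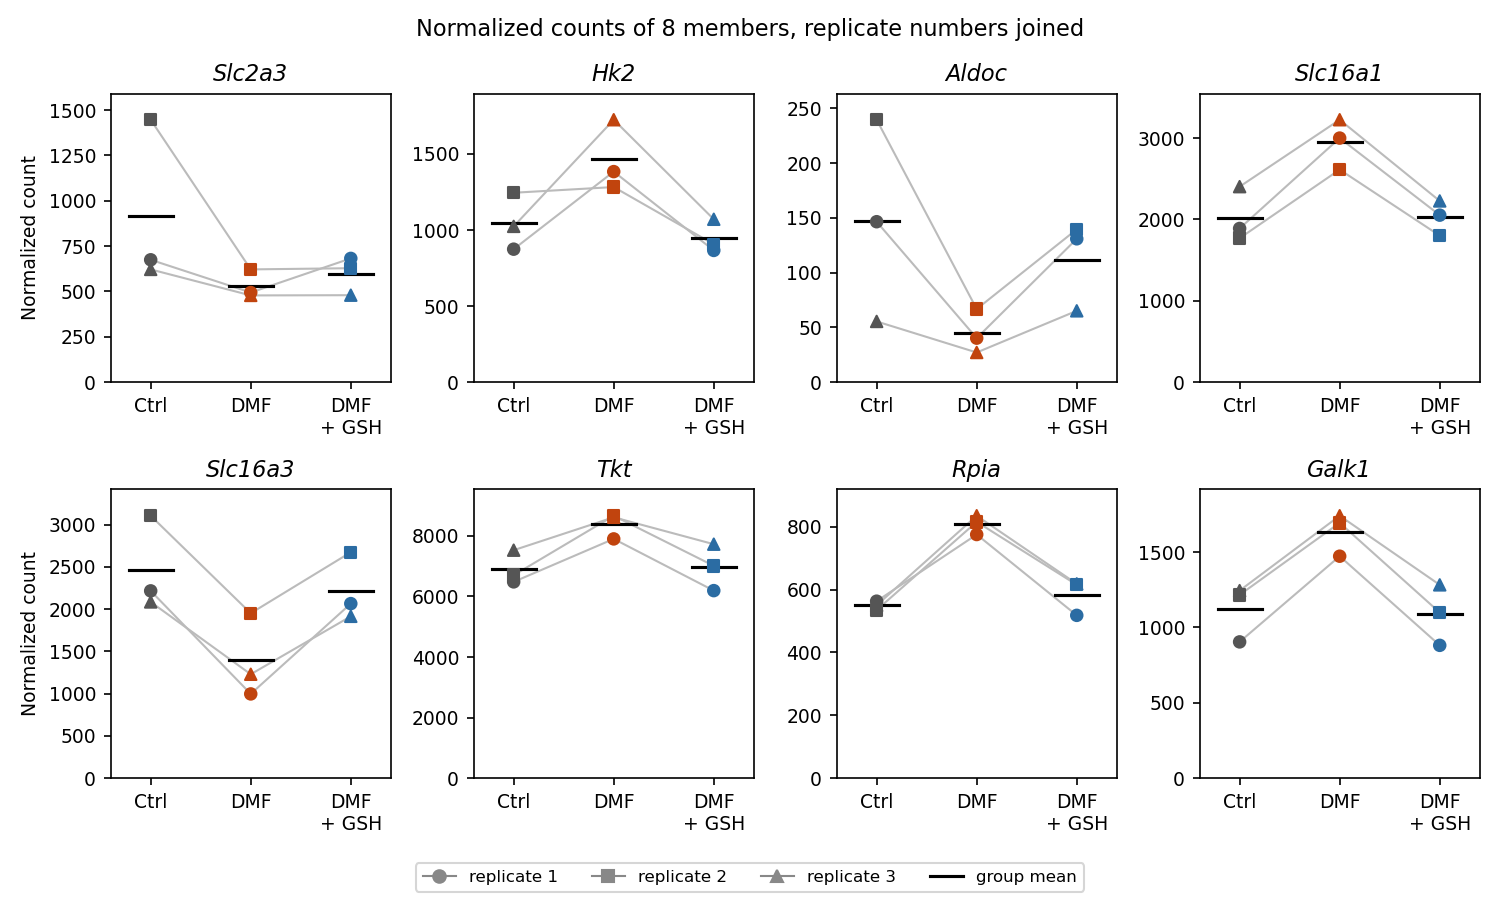
Normalized counts (y axis, from 0, a scale for each gene) of 8 members in Ctrl, DMF and DMF + GSH, with a marker shape for each replicate number, grey lines joining libraries of the same number and black bars at the group means. Rpia, Slc16a1 and Galk1 peak in DMF for every replicate number, Aldoc and Slc16a3 dip there, and Slc2a3 is set apart by Ctrl replicate 2 at 1446.

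The lower steps, which carry the trioses to pyruvate, gave no call with DMF, and their log2 fold changes ran from -0.19 for Bpgm, the 2,3-bisphosphoglycerate synthase, to 0.16 for the mutase Pgam1. Gapdh, the dehydrogenase whose active-site cysteine is a known target of fumarate esters at the protein level, had 1848, 2270.3 and 2086 normalized counts in Ctrl and 1667, 2045 and 2003 in DMF. The groups overlapped, and the log2 fold change was -0.12 ± 0.05 (adjusted p = 0.0852). The pyruvate kinase gene Pkm was at -0.12 ± 0.05 (adjusted p = 0.0638) with differences of -0.11, -0.13 and -0.11 in the replicate pairs. The triose isomerase Tpi1 was at -0.13 ± 0.06, the phosphoglycerate kinase Pgk1 at -0.05 ± 0.06, and the enolases Eno1 and Eno3 at 0.05 ± 0.05 and -0.02 ± 0.12, with adjusted p-values of 0.0828 or above. Enolase makes phosphoenolpyruvate, and Eno1 was the 1 member of these steps called between DMF + GSH and DMF, at -0.18 ± 0.05 (adjusted p = 0.00822), a call lost under TMM, library-total and quantile scaling, in edgeR, with no minimum, with only the 6 libraries compared, and without Ctrl replicate 2 or 3 or replicate 1 or 2 of either treated group. The Eno3 libraries of DMF + GSH, at 159.5, 163 and 188, were all below the 6 others, which spanned 198 to 272, but the difference from DMF of -0.42 ± 0.12 had an adjusted p of 0.0115. Replicate 2 differed most, at -0.73, and without DMF replicate 2 the value was -0.23 (adjusted p = 0.18). Levels are uncertain for several members, and most for Gapdh, Pgk1, Eno1 and Pgam1, because 58.4%, 68.0%, 49.5% and 41.5% of the 50-base windows of their coding transcripts, the length of the reads, also occur in transcripts of other genes, for Gapdh in 222 of them, 213 annotated as pseudogenes. The shares were 30.3% for Pdhb, 24.5% for Gpi1 and 23.7% for Pkm.

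At the lactate step the 2 carriers moved in opposite directions. Lactate dehydrogenase converts pyruvate to lactate, and its A subunit gene Ldha had 22052, 24467 and 25862 normalized counts in Ctrl and 24884, 28305 and 27446 in DMF, with overlap and a log2 fold change of 0.16 ± 0.05 (adjusted p = 0.0249). In DMF + GSH it was lower than in DMF, at -0.21 ± 0.05 (adjusted p = 0.00484), a call lost under library-total and quantile scaling, with only the 6 libraries compared, and without DMF replicate 1 or 2 or DMF + GSH replicate 1 or 2. The B subunit gene Ldhb stayed at 88.2 to 122 normalized counts in all libraries (DMF against Ctrl 0.13 ± 0.14, adjusted p = 0.478).

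Slc16a1 and Slc16a3 encode the proton-coupled monocarboxylate carriers MCT1 and MCT4, of which MCT4 is the form of strongly glycolytic, lactate-exporting cells. Slc16a1 (chromosome 3, 104638668 to 104658462, plus strand) rose from 1889, 1769.6 and 2403 normalized counts in Ctrl to 3000.4, 2613 and 3226 in DMF and had 2053, 1801 and 2228 in DMF + GSH. Every DMF library was above the 6 others. The log2 fold change was 0.55 ± 0.06 with DMF (adjusted p = 3.88e-07) and -0.54 ± 0.06 for DMF + GSH against DMF (adjusted p = 6.63e-07). Slc16a3 (chromosome 11, 120948480 to 120960868, plus strand) had 2216, 3105 and 2085 in Ctrl, 997, 1951 and 1229 in DMF, and 2065, 2673 and 1915 in DMF + GSH. All DMF libraries were below all Ctrl libraries, and DMF replicate 2 alone was above a DMF + GSH library. It fell by 0.86 on the log2 scale with DMF (SE 0.08, adjusted p = 1.26e-07), with differences of -1.15, -0.67 and -0.76 in replicates 1 to 3, and was 0.71 ± 0.08 higher in DMF + GSH than in DMF (adjusted p = 1.52e-06). Both carriers stayed called with any 1 library left out and in DESeq2 with the batch, and lost their calls in limma without the replicate block, at adjusted p = 0.0145 for Slc16a1 and 0.0163 for Slc16a3 with the batch term.

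The upstream sequences of these carriers are shown as the pair that moved in opposite directions. Capitals mark CACGTG, the E-box bound by MYC-MAX, which contains ACGTG, as well as ACGTG itself and TGACNNNGC, the core of the antioxidant response element bound by NRF2. In Slc16a1 (chr3:104638414-104638663, plus strand) the capitals run from a TGACNNNGC match on the opposite strand, 207 bases before the start, into a CACGTG 200 bases before it. In Slc16a3 (chr11:120948817-120949066, plus strand) they mark ACGTG at 27 and 14 bases before the start, with no CACGTG or TGACNNNGC in the window.
Slc16a1: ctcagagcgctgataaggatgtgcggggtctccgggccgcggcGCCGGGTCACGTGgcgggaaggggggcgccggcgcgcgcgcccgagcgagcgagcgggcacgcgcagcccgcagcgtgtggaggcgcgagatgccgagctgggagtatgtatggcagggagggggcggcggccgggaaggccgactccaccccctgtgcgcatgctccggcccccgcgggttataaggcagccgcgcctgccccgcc
Slc16a3: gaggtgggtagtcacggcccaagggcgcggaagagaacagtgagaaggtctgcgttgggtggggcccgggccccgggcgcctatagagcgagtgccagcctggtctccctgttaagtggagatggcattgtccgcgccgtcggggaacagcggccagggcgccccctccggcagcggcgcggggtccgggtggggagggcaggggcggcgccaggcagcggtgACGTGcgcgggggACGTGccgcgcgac

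At the entry to the mitochondrial pathway, Pdk1, a kinase that switches pyruvate dehydrogenase off, fell with DMF. It had 1911, 2269 and 1546 normalized counts in Ctrl, 1454, 1562 and 1371 in DMF, and 1944, 1874 and 1463 in DMF + GSH. The fall was 0.37 on the log2 scale (SE 0.07, adjusted p = 0.000269) and was seen in every replicate pair, although DMF replicate 2 was above Ctrl replicate 3. The difference between DMF + GSH and DMF was 0.26 ± 0.07 (adjusted p = 0.00582), lost without replicate 1 of either group, DMF replicate 2 or DMF + GSH replicate 3. Pdha1 and Pdhb, the subunits of the dehydrogenase itself, were at 0.12 ± 0.06 and 0.11 ± 0.06 with DMF (adjusted p = 0.0784 and 0.183), and every DMF library was above every Ctrl library for both.

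In the pentose phosphate pathway DMF raised members of both arms. In the oxidative arm, G6pdx, the glucose 6-phosphate dehydrogenase that makes the first NADPH, had 991, 1018 and 1058 normalized counts in Ctrl, 1269.6, 1299 and 1137 in DMF, and 1037, 996 and 1000.5 in DMF + GSH. The DMF libraries were above the 6 others, and the log2 fold change was 0.27 ± 0.06 (adjusted p = 0.00212), with a call lost in DESeq2 with the batch (0.27, adjusted p = 0.0233) and without Ctrl replicate 1 or 2 or DMF replicate 1 or 2. Pgd, which makes the next NADPH, had 1966, 2021 and 2249.6 in Ctrl and 2345.5, 2566 and 2556 in DMF. It rose by 0.26 ± 0.05 (adjusted p = 0.000702), without overlap, and lost its call without Ctrl replicate 2. The lactonase Pgls, which acts between them, was at 0.19 ± 0.11 (adjusted p = 0.166), and 20.6% of its exon bases overlap Fam129c on the same strand.

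In the non-oxidative arm, Rpia, the isomerase that makes ribose 5-phosphate, gave the most stable call of the members. It had 563, 535 and 550.3 normalized counts in Ctrl, 775, 816 and 835 in DMF, and 518, 615 and 618 in DMF + GSH, so that the lowest DMF library was above the highest of the others. The log2 fold change was 0.56 ± 0.07 (adjusted p = 7.06e-06), and Rpia was the 1 member called in all 22 alternatives, with adjusted p = 0.00457 under the batch term. Tkt, the transketolase that links the pathway back to glycolysis, rose from 6482, 6702 and 7528 to 7901, 8666 and 8615, without overlap, by 0.28 ± 0.05 (adjusted p = 0.000263). The epimerase Rpe, at 0.19 ± 0.07 (adjusted p = 0.0278), had all DMF libraries above the Ctrl libraries, and the transaldolase Taldo1 was at -0.03 ± 0.06 (adjusted p = 0.652). The 7 genes together took up 0.127% ± 0.00684 (SD, n = 3) of all normalized counts in Ctrl, 0.147% ± 0.00587 in DMF and 0.129% ± 0.0106 in DMF + GSH, a share with no test of its own.

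Galk1, which phosphorylates galactose so that it can enter the same hexose phosphate pool, rose with them. Its libraries held 904, 1216 and 1244 normalized counts in Ctrl, 1473, 1694 and 1741 in DMF, and 881, 1099 and 1282.5 in DMF + GSH, with every DMF library above the 6 others. The log2 fold change was 0.56 ± 0.07 with DMF (adjusted p = 1.72e-06) and -0.60 ± 0.07 for DMF + GSH against DMF (adjusted p = 9.05e-07), and both calls held with the batch term (adjusted p = 0.00457 and 0.00671). G6pdx and Galk1 are shown as members that rose and carry a motif close to the start. Capitals mark TGACNNNGC on the opposite strand, 57 bases before the start of G6pdx (chrX:74428881-74429130, minus strand), and CACGTG, 17 bases before that of Galk1 (chr11:116012720-116012969, minus strand).
G6pdx: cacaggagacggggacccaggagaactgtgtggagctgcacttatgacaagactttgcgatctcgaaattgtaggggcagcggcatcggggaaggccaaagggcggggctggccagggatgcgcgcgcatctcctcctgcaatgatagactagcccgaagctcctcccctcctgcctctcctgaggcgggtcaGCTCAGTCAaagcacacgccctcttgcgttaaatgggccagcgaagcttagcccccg
Galk1: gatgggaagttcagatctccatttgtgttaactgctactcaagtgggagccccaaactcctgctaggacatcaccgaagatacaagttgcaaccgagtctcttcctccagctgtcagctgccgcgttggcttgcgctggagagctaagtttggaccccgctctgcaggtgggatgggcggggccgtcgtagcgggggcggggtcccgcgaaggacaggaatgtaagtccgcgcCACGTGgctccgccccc

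Across the members, 33 had a promoter window in the RefSeq table, 47 windows in all. ACGTG was in 42.6% of these windows, beside 19.6% of the 32851 windows of all genes, CACGTG in 10.6% beside 7.15%, and TGACNNNGC in 12.8% beside 12.4%. TGATGNAA, the core of the C/EBP-ATF element, was in 0 windows of the members and 3.97% of all. By gene, ACGTG was in a window of 17 of the 33 members and 5886 of 27025 genes, TGACNNNGC of 6 and 3781, and CACGTG of 5 and 2187. Of the 7 members that rose, 4 had ACGTG, 3 had TGACNNNGC (1 of them on the gene strand) and 2 had CACGTG, of the 7 that fell and had a window, 4, 1 and 1 did, and of the 19 that were not called, 9, 2 and 2 did. The motif counts include matches that lie inside one another, the windows differ in base composition, and no binding was measured here.

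With GSH added, members again moved in both directions. In DMF + GSH against DMF, 4 members rose (Hk1, Aldoc, Slc16a3 and Pdk1), beside 13.7% of all genes tested, and 9 fell (Hk2, Eno1, Ldha, Slc16a1, G6pdx, Pgd, Tkt, Rpia and Galk1), beside 15.6%. Slc2a3, Gpi1, Pfkl and Pfkm were not called, with log2 fold changes of 0.16, 0.06, 0.13 and 0.36. With the batch in place of the block limma called 0 members higher and 1 lower, Galk1, and DESeq2 with the batch called 1 higher, Slc16a3, and 5 lower, Hk2, Slc16a1, Tkt, Rpia and Galk1. The 2 comparisons share the DMF libraries, so opposite signs are not independent of each other and no overlap of their calls is read. Tkt was at -0.27 ± 0.05 (adjusted p = 0.000463), Rpia at -0.47 ± 0.07 (adjusted p = 5.01e-05), Pgd at -0.22 ± 0.05 (adjusted p = 0.0031) and G6pdx at -0.29 ± 0.06 (adjusted p = 0.00152). The call for Hk1, at 0.18 ± 0.05 (adjusted p = 0.00818), was lost with any library but Ctrl replicate 1 left out, with no minimum and with only the 6 libraries compared. That for Pgd was lost under quantile scaling and without DMF replicate 1 or 2 or DMF + GSH replicate 1 or 3, and that for G6pdx without DMF replicate 1 or 2 or DMF + GSH replicate 2.

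The direct comparison of DMF + GSH with Ctrl called 0 members in limma, beside 0.0259% of all genes tested (3 of 11599), and 7 of the 34 members had an unadjusted p under 0.05, as did 599 of the 11599 genes. The most distant was Slc2a3, at -0.52 ± 0.14 (adjusted p = 0.386), again with Ctrl replicate 2 high, followed by Eno3 at -0.44 ± 0.12 (adjusted p = 0.42). The other 5 were Slc2a1 at -0.17, Pfkp at -0.15, Eno1 at -0.13, Gpi1 at -0.12 and Pkm at -0.11, so that all 7 were lower than in Ctrl. Replicate 2 weighed most for Slc2a1, at -0.08, -0.40 and -0.04 in replicates 1 to 3, and for Pfkp, at -0.06, -0.29 and -0.10. It did not for Pkm, at -0.13, -0.12 and -0.07, or Eno3, at -0.50, -0.32 and -0.51. The median of the 34 members by replicate was -0.04, -0.12 and 0.01. For Slc16a1 the remaining difference was 0.01 ± 0.06, for Rpia 0.08 ± 0.07, for Galk1 -0.05 ± 0.07 and for Slc16a3 -0.15 ± 0.08. With no minimum on the level, limma called 1 member, Slc2a3, at -0.52 ± 0.10 (adjusted p = 0.00243). DESeq2 with the batch called 0 genes in this comparison, members included.

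**Figure D3:**
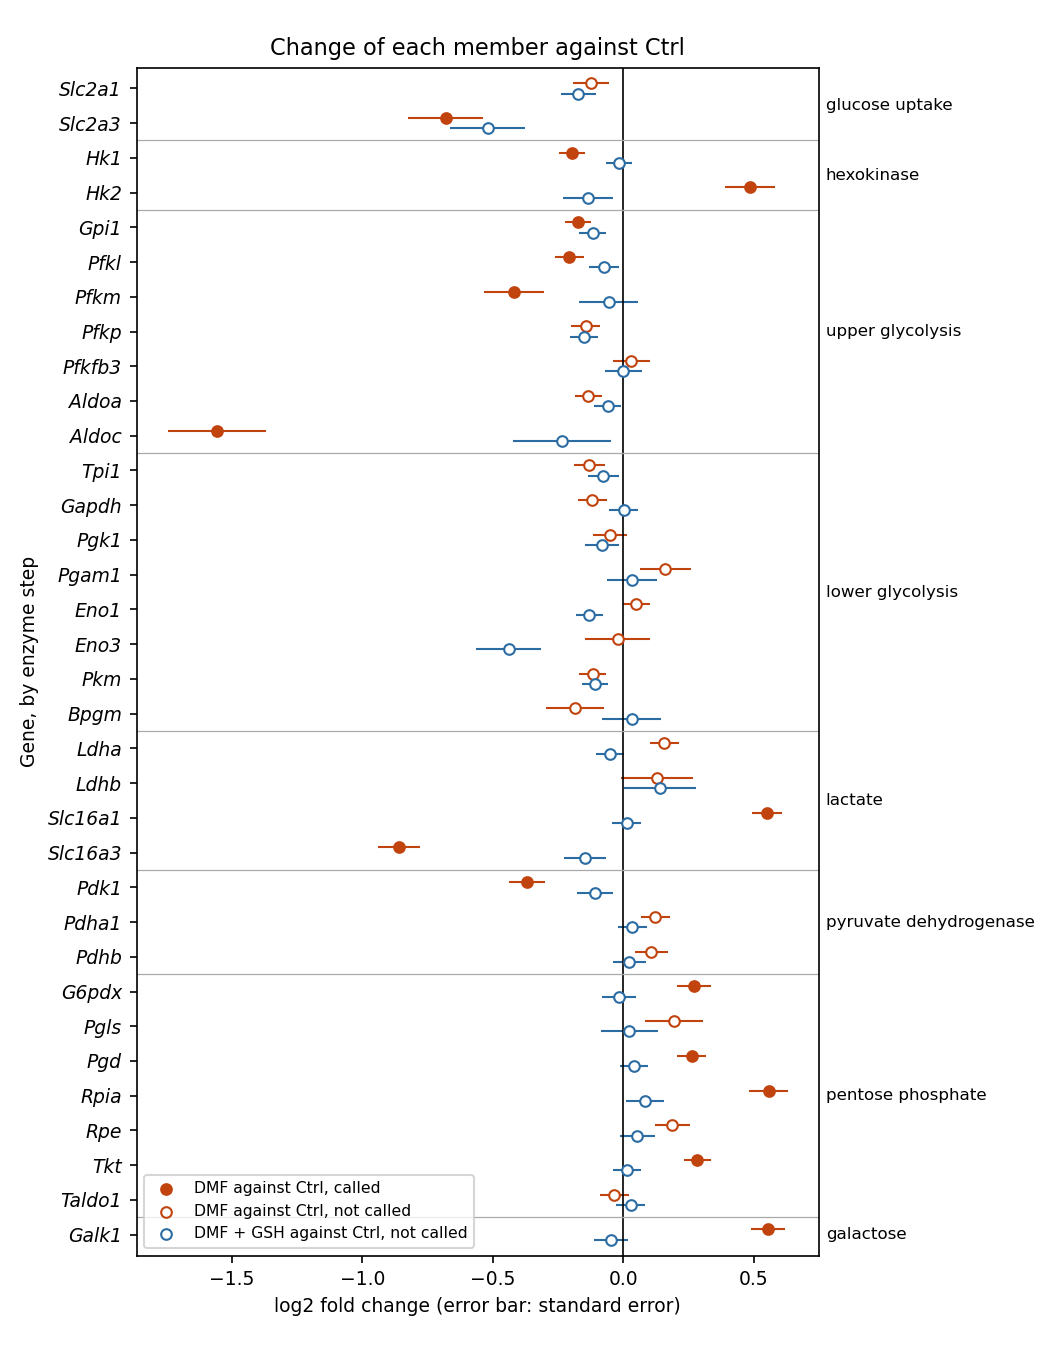
Log2 fold change against Ctrl (x axis) of each member (y axis, by enzyme step) in DMF, in red, and in DMF + GSH, in blue, with standard errors as bars and filled points for an adjusted p under 0.01. The 15 filled points are all of DMF, with Aldoc at -1.56 farthest left and Rpia and Galk1 at 0.56 farthest right, and the blue points farthest from 0 are Slc2a3, Eno3 and Aldoc, at -0.52, -0.44 and -0.24.

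Per kb of exon, counted over all annotated transcripts of a gene, Ldha had the highest level in Ctrl. It was at 7289 ± 582 normalized counts per kb (SD, n = 3), followed by Aldoa at 4913 ± 591 and Pkm at 4192 ± 269.5. Exon length counted in this way departs unevenly from that of the coding transcripts, so levels of different genes compare only roughly. Rpia had 5359 exon bases but 1780 distinct 50-base windows in its coding transcripts, and Galk1 had 1406 and 1357. Aldoa was above Pkm in each Ctrl library, at 4513, 5592 and 4633 against 3926, 4465 and 4186. Their order is still open, since 23.7% of the 50-base windows of Pkm but 8.46% of those of Aldoa also occur in other genes. By this length Rpia, at 103 ± 2.64, and Aldoc, at 45.1 ± 28.2, were among the 5 lowest, a place that for Rpia depends on the length used. Gapdh was at 500.4 ± 51.2, with the uncertainty of its shared windows given above. Within families, the share of Slc16a1 among the 2 lactate carriers went from 49.8% ± 8.74 (SD, n = 3) in Ctrl to 72.0% ± 9.01 in DMF and 52.5% ± 6.98 in DMF + GSH, and was 61.7% in the lowest DMF library against 58.3% in the highest of the others. Hk2 held 31.1% ± 2.61 of the hexokinase level in Ctrl, 42.0% ± 4.76 in DMF and 29.4% ± 2.92 in DMF + GSH, also without overlap. The share of Slc2a3 among the 2 glucose transporters was 19.3% ± 5.08, 13.8% ± 1.19 and 15.7% ± 2.5. Among the phosphofructokinases, Pfkl was at 55.4%, 55.3% and 56.4% of the family. The size of these shares rests on the exon length, which was 7245 bases for Slc2a3, 13401 for Pfkp and 6675 for Pfkl. Their coding transcripts held 4319, 4536 and 3759 windows. Pfkp had more counts than Pfkl in Ctrl, with means of 4077 and 3226, so the order of these 2 is open. Aldoc did not exceed 1.30% of the aldolase level in any library, and Ldhb reached at most 1.11% of the lactate dehydrogenase level.

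**Figure D4:**
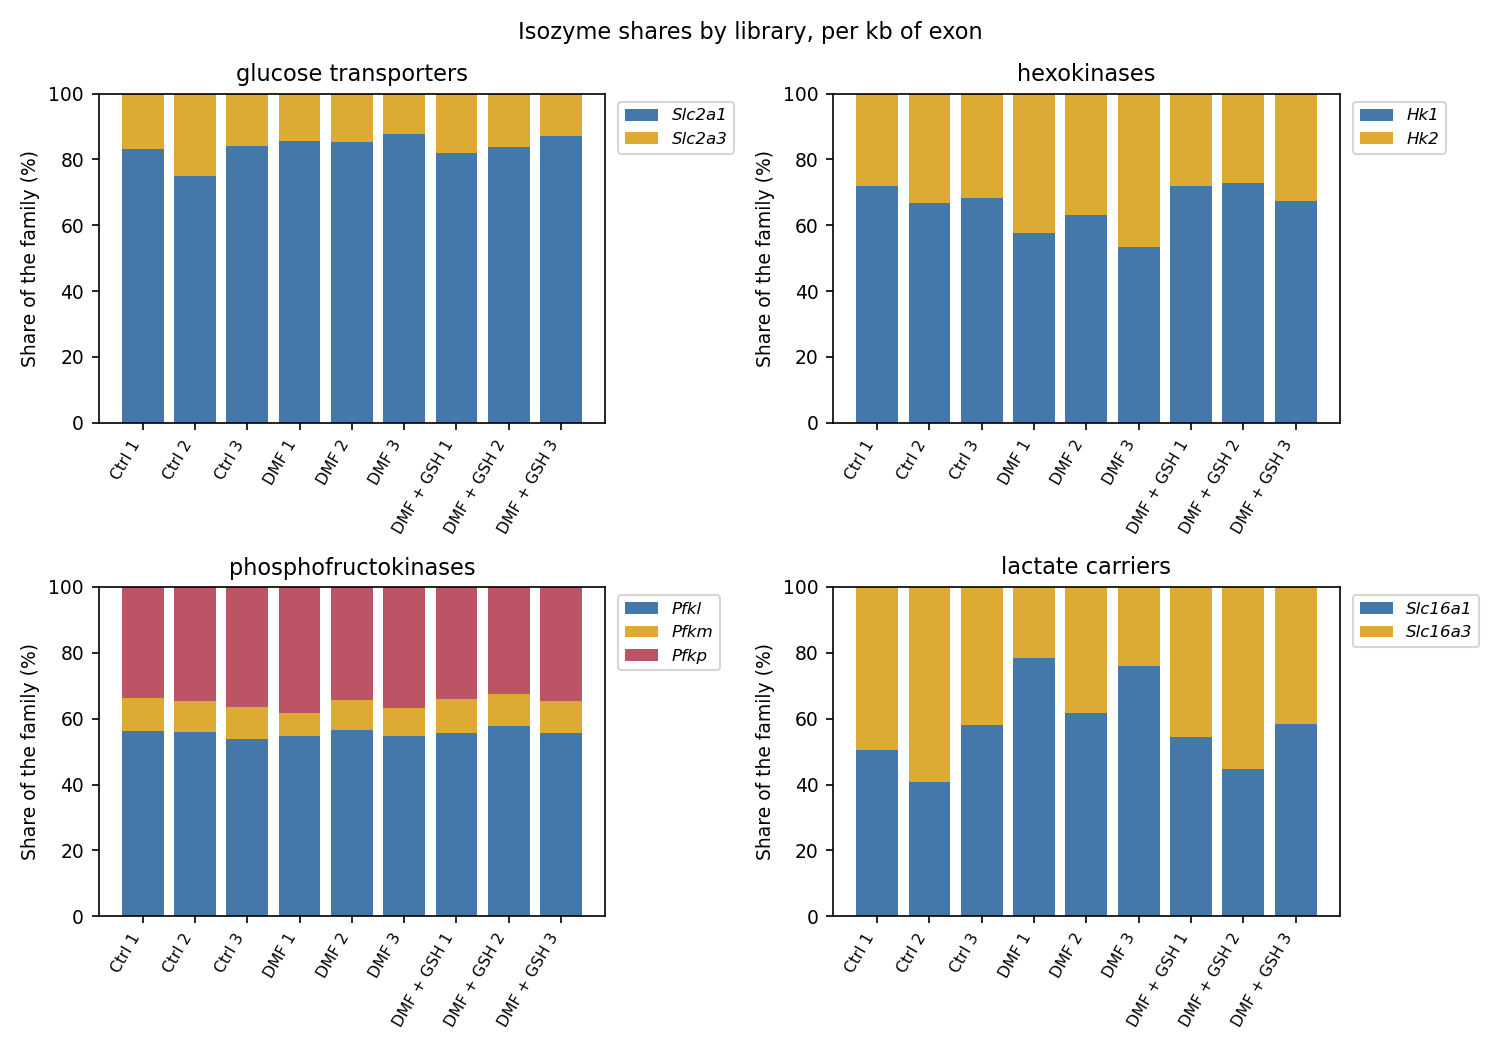
Stacked bars give, for each library (x axis), the share in percent of each member in the level of its family (y axis), from normalized counts per kb of exon. In the lactate carriers the Slc16a1 part grows from 49.8% in Ctrl to 72.0% in DMF, in the hexokinases the Hk2 part from 31.1% to 42.0%, and the phosphofructokinases hardly shift.

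Of the 63 other genes listed for these pathways, 41 passed the minimum mean, and DMF raised 7 and lowered 8 of them, beside the same 17.6% and 15.6% of all genes. The 4 with a log2 fold change of -0.75 or lower were Pygl, the liver glycogen phosphorylase, at -2.76 ± 0.38 (adjusted p = 8.96e-06), the pyruvate dehydrogenase kinase Pdk2 at -1.02 ± 0.19 (adjusted p = 0.000309), the hexose and urate carrier Slc2a9 at -0.82 ± 0.18 (adjusted p = 0.000924), and the galactose mutarotase Galm at -0.76 ± 0.10 (adjusted p = 1.02e-05). Pygl was low throughout, with 28.1, 49.2 and 14.2 normalized counts in Ctrl, 3.17, 7.70 and 0.968 in DMF, and 24.2, 17.8 and 9.72 in DMF + GSH. Pdk2, a kinase of the same kind as Pdk1, had 96.7, 83.6 and 39.8 in Ctrl and 39.1, 39.4 and 24.2 in DMF, so that Ctrl replicate 3 was close to the upper DMF libraries. With the batch in place of the block Galm kept its call (adjusted p = 0.0065), and Pygl, Pdk2 and Slc2a9 did not (0.0121, 0.0649 and 0.0202).

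Known regulators of these genes also changed. Myc, which drives glycolytic and nucleotide-synthesis genes after T cell activation, had 1977, 2178 and 2363 normalized counts in Ctrl, 4514, 3297 and 4147 in DMF, and 2051, 1812 and 2408 in DMF + GSH. It rose by 0.87 ± 0.08 on the log2 scale with DMF (adjusted p = 9.04e-08). Hif1a, the hypoxia-inducible factor, fell by 0.33 (SE 0.05, adjusted p = 4.41e-05), with 4822 to 4961 in DMF against 5734 to 6428 in Ctrl. Txnip, which restrains glucose uptake and binds thioredoxin, had 1788, 2040.0 and 1190 in Ctrl and 870, 1008 and 733 in DMF, a fall of 0.92 (SE 0.07, adjusted p = 7.19e-09). With the batch term Myc and Hif1a kept their calls (adjusted p = 0.00554 and 0.00743), and Txnip was at 0.0157. Mlxip, which encodes the glucose sensor MONDOA, was at -0.07 ± 0.07 (adjusted p = 0.476). With GSH added, Myc was lower than in DMF by a log2 fold change of -0.93, and Hif1a and Txnip were higher by 0.33 and 0.92, with adjusted p-values of 6.82e-08, 6.13e-05 and 1.23e-08. With the batch term only Myc kept that call (adjusted p = 0.00809), and Hif1a and Txnip were at 0.0121 and 0.0191. Whether these changes bear on the members was not tested.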

How the data were processed

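Single 50-base reads of poly(A) RNA were aligned by the authors with STAR 2.4.0b to GRCm38 and assigned to genes with featureCounts. The authors deposited normalized counts, a signal equal to the read count divided by a size factor for each library. All values gave whole reads within 0.01 of a read (100% of values), and the recovered read counts set the depth. The table also holds the log2 fold change, a test score (the statistic) and p-values of the authors' own comparison, which were not used here.

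Values were tested as log2(normalized count + 1) with limma 3.58.1 (trend) in R 4.3.3, for genes with a mean of at least 10, with group and replicate number in 1 fit over all 9 libraries. Called means a Benjamini-Hochberg adjusted p under 0.01. Fold changes are on this log2 scale, which understates the change of low genes. Library titles carry replicate numbers 1 to 3 in every group. The deviations of same-numbered libraries from their group means correlated at 0.447 to 0.578 (9 pairs), and those of other pairs at -0.471 to -0.0621 (18 pairs). Deviations within a group cancel out, so the negative values of other pairs follow from the positive ones and are not separate evidence. Pairing by replicate number was the rule set for these members, and the number was kept as a block. It contains the batch that the authors had in their model.

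Members, lists and motifs were chosen with earlier results of these data known. All members are named, with other pathway genes named where called with a log2 fold change beyond 0.75 in size, and 4 regulators whatever their values. Of the 63 other pathway genes, Tigar had no row under that symbol. Gene positions, exon lengths and shared 50-base windows come from GENCODE vM21 (GRCm38). Alternatives were edgeR 4.0.16 (quasi-likelihood) and DESeq2 1.42.0 on the recovered reads, other models, scalings, pseudocounts and filters, and leaving out each library.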

Additional observations from a re-analysis of the deposited data

How the results depend on the processing

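Without the replicate block, limma with the batch term called 834 genes in DMF against Ctrl (2 members higher, 0 lower), and with neither term 583 (1 and 0). For DMF + GSH against DMF the counts were 95 (0 higher, 1 lower) and 34 (0 and 0), and for DMF + GSH against Ctrl 0 and 0. DESeq2 with the batch called 1905 genes (6 members higher, 1 lower), 1500 (1 higher, 5 lower) and 0. DMF + GSH against Ctrl gave 23 genes with no minimum, 1 of them a member, and 1 under library-total and 1 under quantile scaling. Leaving out 1 library gave 3 to 8 members lower with DMF, 2 to 4 higher and 5 to 10 lower for DMF + GSH against DMF, and 0 to 6 genes for DMF + GSH against Ctrl. No called member changed sign. Some members that were not called did, as did the regulator Mlxip. Under quantile normalization Pfkfb3 was at -0.0074 and Eno3 at 0.0012 with DMF, and Slc2a1 at 0.0033, Pfkp at 0.035, Pfkfb3 at 0.0031, Pgk1 at 0.0027 and Ldhb at -0.038 for DMF + GSH against DMF. Pfkp was there at 0.00062 with TMM, 0.025 with library totals and 0.00066 in edgeR. Leaving out 1 library, the sign changed within these ranges: with DMF, Pfkfb3 -0.032 to 0.10, Eno3 -0.21 to 0.098, Taldo1 -0.060 to 0.0032 and Mlxip -0.16 to 0.0021, and for DMF + GSH against DMF, Slc2a1 -0.10 to 0.035, Slc2a3 -0.049 to 0.37, Pfkp -0.042 to 0.049, Pfkfb3 -0.082 to 0.031, Pgk1 -0.074 to 0.029, Pkm -0.0052 to 0.025, Ldhb -0.072 to 0.071, Pgls -0.35 to 0.030 and Mlxip -0.086 to 0.041. The cause of these shifts was not tested. Motif shares on the gene strand alone were 25.5% for ACGTG and 4.26% for TGACNNNGC, beside 13.6% and 6.38% of all windows, so that TGACNNNGC was below the share of all windows there.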
